A study of Mus musculus with 4 samples.

Results

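The genes described here are 9 oligodendrocyte genes whose mRNAs encode proteins of central myelin or of the cells that make it. They are Mbp, Mog, Mag, Mobp, Cnp, Mal, Cldn11, Opalin and Aspa, taken by name from a count table of 37411 gene rows. No measured value served as a criterion, but the choice was made with earlier results of these data known. All 9 were in the table, and all 9 passed the low-count filter that left 14357 genes to test. The study looked for RNAs bound to KIF5C, a heavy chain of the kinesin-1 motor, in the hippocampus of mice aged 7 to 9 weeks. RNA was sequenced from precipitates made with a kinesin antibody (labelled Kif5C IP, the KIF5C libraries) or with a mouse IgG control antibody (labelled IgG Control, the IgG libraries), with 2 libraries for each. Both groups came from hippocampal lysates of adult mice, and no genotype, strain, sex or treatment is given in the sources used here. A precipitation took the hippocampi of 2 mice, and 6 precipitations were pooled into 2 samples, so every library mixes animals. Whether the libraries of an antibody hold separate animals is not stated, so their spread may be technical. No library of the starting lysate was analysed here. A high level therefore means high in the KIF5C precipitate relative to the IgG precipitate. For a low level, less RNA recovered with that antibody, fewer oligodendrocytes in a pool and less RNA per cell cannot be told apart.

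Oligodendrocytes wrap axons of the brain in myelin, a compacted stack of membrane. Some myelin proteins are made where the membrane grows: Mbp mRNA is packed into granules, moved along microtubules into the cell's processes and translated there. In cultured oligodendrocytes this movement was shown to need kinesin, and the RNA-binding protein hnRNP A2 recognises an element in the Mbp message. Other myelin proteins, among them the membrane proteins MOG and MAG, are made on the endoplasmic reticulum and reach myelin through the secretory pathway.

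The libraries held 11059266 to 15172432 counts. Of these, mt-Rnr2, a mitochondrial rRNA, made up 7.36% in IgG 1 and 11.3% in KIF5C 1 but 32.2% in IgG 2 and 31.9% in KIF5C 2, and levels are given as CPM (counts scaled to the same total in every library) after TMM scaling, which aligns the libraries on the bulk of their genes. Markers of hippocampal neurons were abundant: the 15 neuron markers summed to 4650 and 4346 CPM with IgG and 5502 and 5305 CPM with KIF5C. Schwann cell markers, which would come from peripheral myelin, were near 0: of 6 genes only Egr2 passed the filter, and the list summed to 3.07 to 4.66 CPM. Most of that sum was Egr2, at 2.69 and 3.43 CPM with IgG and 3.15 and 3.65 CPM with KIF5C. Which cells the Egr2 counts came from was not tested.

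Added up, the 9 myelin mRNAs stood at nearly the same TMM-scaled level with either antibody. They summed to 1175 CPM in IgG 1, 1177 in IgG 2, 1200 in KIF5C 1 and 1165 in KIF5C 2, and the KIF5C libraries lay on either side of the IgG libraries. The group levels were 1176 ± 1.85 CPM with IgG and 1183 ± 24.6 with KIF5C (SD, n = 2 each). Without TMM they made up 0.146% and 0.0837% of all counts with IgG and 0.153% and 0.102% with KIF5C, so the closeness of the sums, the IgG pair included, depends on that scaling. The single mRNAs differed from each other more than their sum did. Mog, Aspa and Opalin were lower and Mag was higher in both KIF5C libraries than in both IgG libraries, with log2 fold changes from -0.84 for Aspa to 0.64 for Mag. Mog, encoding myelin oligodendrocyte glycoprotein, fell past the threshold, an adjusted p of 0.05 over all genes tested in edgeR's quasi-likelihood test. The other 8 did not pass.

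**Figure D1:**
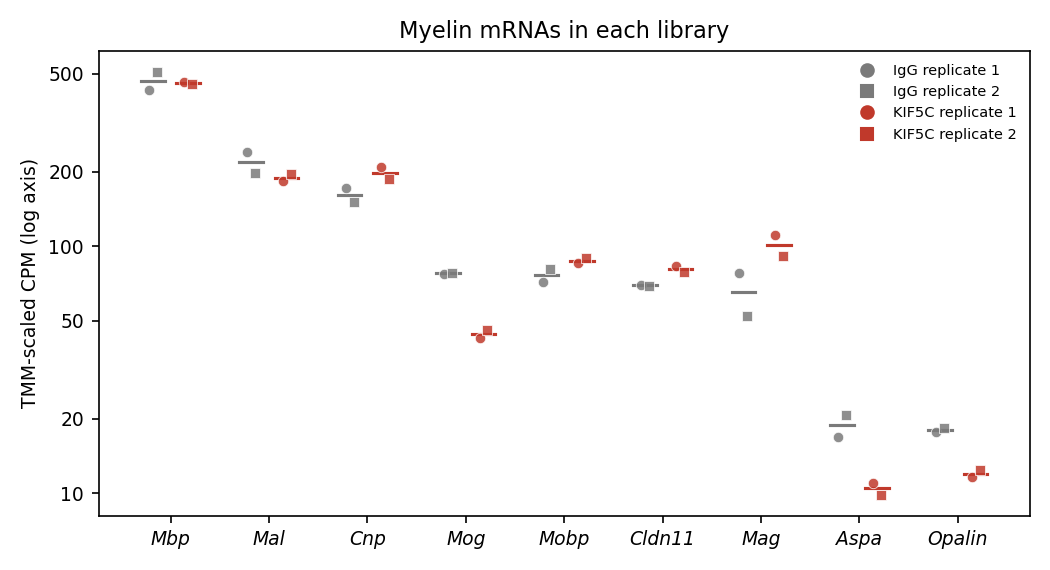
Level of each myelin mRNA in the 4 libraries, as TMM-scaled CPM on a log axis (circles, replicate 1; squares, replicate 2; horizontal lines, group means). Mog stands at 77.6 and 78.1 CPM with IgG against 42.5 and 45.8 with KIF5C, while the points of Mbp mix.

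In that test 1 of the 9 genes was lower and 0 were higher in the KIF5C precipitate. Over all genes tested, 0.745% were called lower and 3.33% higher, so the count for the 9 rests on Mog alone. With library totals in place of TMM the split over all genes was 1 higher and 4 lower, against 478 and 107. DESeq2 gave the same counts for the 9. At an unadjusted p under 0.05, 3 of the 9 were lower and 1 was higher, against 21.5% of all genes in either direction. The groups did not overlap for 4 genes with KIF5C above and 4 with KIF5C below, shares to be read against 26.3% and 26.2% of all genes. The median log2 fold change of the 9 was -0.03, beside -0.03 for all genes tested, and their SD was 0.52 on the log2 scale, beside 0.52 for all genes. Median and spread of the 9 thus lay close to those of the whole table.

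The compact-myelin genes come first. Mbp encodes myelin basic protein, which holds the inner faces of the membrane together, and lies on chromosome 18 (82475146 to 82585637, plus strand, in GRCm38 with GENCODE M21, as for all positions here). It measured 429 and 509 CPM in the IgG libraries and 463 and 454 CPM in the KIF5C libraries. The KIF5C values lay between the IgG values. Its log2 fold change was -0.03 (SE 0.26, adjusted p = 0.959 in edgeR's test), with a 95% interval from -0.58 to 0.51. On the linear scale that interval runs from 0.670-fold to 1.42-fold, so 2 libraries against 2 leave differences of that size possible. The sign of this value turned to 0.11 without IgG replicate 2 and to 0.14 with library totals in place of TMM, where the median of all genes also stood at 0.11. Mbp made up 36.6% and 43.2% of the 9 genes' counts with IgG, and 38.6% and 38.9% with KIF5C, the KIF5C shares lying between the IgG shares.

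Mobp encodes myelin-associated oligodendrocytic basic protein, a small cytoplasmic protein of compact myelin whose mRNA is also known from oligodendrocyte processes (chromosome 9, 120149707 to 120181484, plus strand). It measured 71.5 and 81.0 CPM with IgG and 85.2 and 89.3 CPM with KIF5C. Both KIF5C libraries were higher than both IgG libraries, by a margin smaller than the gap between the IgG libraries. Its log2 fold change of 0.20 (SE 0.21, interval -0.25 to 0.64) did not pass (adjusted p = 0.634 in edgeR's test), and it was 0.04 with a GC and length trend removed.

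Sequence elements tied to RNA transport in oligodendrocytes were looked up in the longest protein-coding transcript of each gene, on the transcript strand only. The core of the hnRNP A2 element was searched as GCCAAGG. It was found in 3 of the 9 transcripts (Mobp, Cnp and Opalin) and in 37.3% of the transcripts of all genes tested. The Mbp transcript searched, 1 of 16 annotated for the gene, held no match, although its message is the known carrier, so these letters do not stand for the whole element and a missing match says nothing of binding. Among other transcripts within 10% of the same length, the share was 36.4% for Mobp, 29.0% for Cnp and 23.0% for Opalin. These sites are shown because Mobp and Cnp belong to the mRNAs that were slightly higher with KIF5C and Opalin to those that were lower. Capitals mark the 7 searched letters, and each run is a transcript stretch of GENCODE release M21 (GRCm38), 5′ to 3′. The base number is that of the first capital, and 10 flanking bases are printed on each side.
Mobp, coding, from base 155 of the transcript: tcagaaaatgGCCAAGGagggccccag
Cnp, coding, from base 1235: aaggggggcaGCCAAGGtgaggcggtg
Cnp, 3′ UTR, from base 2031: gtggatggagGCCAAGGtcagaaagat
Opalin, 5′ UTR, from base 58: agagaagcctGCCAAGGgggcctgtca
Genes that hold the letters thus stood on both sides of 0.

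The core of the element bound by quaking, an RNA-binding protein that acts on myelin mRNAs in mice, was searched as ACTAAC. It was found in 4 of the 9 transcripts (Mbp, Mobp, Mal and Aspa) and in 29.0% of all. Among other transcripts of the same length within 10%, 37.8% held it for Mbp, 26.1% for Mobp, 20.1% for Mal and 12.1% for Aspa. The sites are shown, with the searched letters in capitals, as a second element known in myelin mRNAs. The base number is again that of the first capital. The Mbp site lies in its 3′ UTR and is not printed.
Mobp, 3′ UTR, from base 3254: gttatctggcACTAACaagaactcaa
Mal, 3′ UTR, from base 2620: ctaacattacACTAACcagcagctca
Aspa, coding, from base 1260: agacaacaaaACTAACactcagcgca
The carriers of these letters ran from -0.84 (Aspa) to 0.20 (Mobp) in log2 fold change. A match is a run of letters and not a measured binding site.

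Among the other genes of the sheath, Cnp encodes an enzyme of non-compact myelin that keeps cytoplasmic channels open (chromosome 11, 100574904 to 100591729, plus strand). It measured 172 and 151 CPM with IgG and 209 and 188 CPM with KIF5C. All KIF5C values lay above all IgG values, with a log2 fold change of 0.29 (SE 0.23, interval -0.19 to 0.78, adjusted p = 0.479 in edgeR's test). Its locus overlaps Dnajc7 on the opposite strand, and without a stated strand setting reads of the shared stretch cannot be assigned to one of them. Other annotated genes overlap Mbp and Mog on the opposite strand and Mobp on its own strand. On the same strand, a strand setting would not separate shared reads. All these overlaps, that of Dnajc7 included, are of whole gene spans, and whether exons are shared was not checked.

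Cldn11 encodes claudin-11, the protein of the tight junctions that seal the layers of myelin (chromosome 3, 31149920 to 31164324, plus strand). It measured 70.0 and 69.1 CPM with IgG and 83.5 and 78.5 CPM with KIF5C. The groups did not overlap and the replicates lay close together. Cldn11's log2 fold change of 0.22 (SE 0.21, interval -0.22 to 0.66) did not pass (adjusted p = 0.577 in edgeR's test).

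Mal encodes a lipid-raft protein that takes part in sorting proteins to the myelin membrane (chromosome 2, 127633226 to 127656695, minus strand). It measured 241 and 198 CPM with IgG and 183 and 196 CPM with KIF5C. IgG 2 and KIF5C 2 were nearly level and IgG 1 stood higher. The log2 fold change was -0.21 (SE 0.23, interval -0.71 to 0.28, adjusted p = 0.638 in edgeR's test).

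The genes of the outer and inner surface of the sheath had fold changes of opposite sign. Mog encodes a glycoprotein of the outermost myelin layer (chromosome 17, 37010743 to 37023398, minus strand). It measured 77.6 and 78.1 CPM with IgG and 42.5 and 45.8 CPM with KIF5C. Replicates lay within a few CPM of each other, and the groups were well apart. Mog fell by 0.82 on the log2 scale (SE 0.21, interval -1.26 to -0.38, adjusted p = 0.038 in edgeR's test), or 0.567-fold. The call rested on all but 1 of the libraries. Leaving out IgG replicate 2 gave an adjusted p of 0.0696, leaving out KIF5C replicate 1 gave 0.391 and leaving out KIF5C replicate 2 gave 0.192, while the value stayed between -0.76 and -0.86 in the 4 fits that left out a library. With library totals it was -0.69 (adjusted p = 1.00).

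Mag encodes myelin-associated glycoprotein, which sits on the innermost layer and faces the axon (chromosome 7, 30899176 to 30914873, minus strand). It measured 78.0 and 52.3 CPM with IgG and 111 and 91.7 CPM with KIF5C. The KIF5C libraries were both higher, but the IgG libraries were themselves far apart. Mag's log2 fold change of 0.64 (SE 0.24, interval 0.13 to 1.14) did not pass (adjusted p = 0.135 in edgeR's test). The value moved with the IgG library left out: without IgG replicate 1 it was 0.96 (adjusted p = 0.0174), and with only IgG replicate 1 kept it was 0.39 (adjusted p = 0.398).

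The ratio of Mag counts to Mog counts within a library does not depend on how libraries are scaled. It was 1.00 in IgG 1 and 0.669 in IgG 2, and 2.62 in KIF5C 1 and 2.00 in KIF5C 2. Both KIF5C ratios were higher than both IgG ratios. This pair was chosen after the values were seen, and an exact two-sided permutation test of 2 libraries against 2 cannot go below 0.333, so the ratio is given as a description. Their shares of the 9 genes' summed counts differed in the same way. Mog went from 6.60% and 6.63% with IgG to 3.54% and 3.93% with KIF5C, and Mag from 6.64% and 4.44% to 9.28% and 7.87%.

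**Figure D2:**
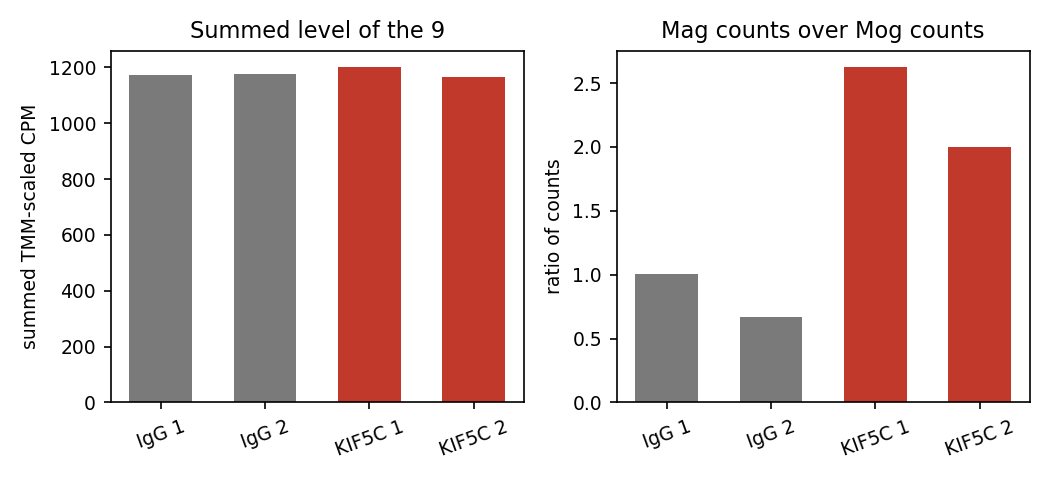
Left, summed TMM-scaled CPM of the 9 myelin mRNAs in each library; right, Mag counts divided by Mog counts in each library (grey, IgG; red, KIF5C). The sums lie between 1165 and 1200 CPM, while the ratio is 1.00 and 0.669 with IgG and 2.62 and 2.00 with KIF5C.

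The remaining pair are the least abundant of the 9. Aspa encodes aspartoacylase, which splits N-acetylaspartate and so supplies acetate in oligodendrocytes (chromosome 11, 73304992 to 73329596, minus strand). It measured 17.0 and 20.7 CPM with IgG and 11.0 and 9.87 CPM with KIF5C. The groups were apart, and the log2 fold change was -0.84 (SE 0.23, interval -1.33 to -0.35), just short of the threshold (adjusted p = 0.0516 in edgeR's test). Aspa passed with no low-count filter (adjusted p = 0.032 in edgeR's test) and with a mean count of 50 required (0.045). It did not pass with DESeq2 (adjusted p = 0.0542) or with library totals in place of TMM, where it stood at -0.65. Nor did it pass with the GC and length trend removed (-0.50, adjusted p = 0.158 in edgeR's test). Dropping single libraries moved the log2 fold change between -0.68 (IgG replicate 2 dropped) and -0.98 (IgG replicate 1 dropped).

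Opalin encodes a sialylated membrane protein of oligodendrocytes (chromosome 19, 41061710 to 41077113, minus strand). It measured 17.7 and 18.4 CPM with IgG and 11.7 and 12.4 CPM with KIF5C. Replicates lay within 1 CPM of each other and the groups were apart. Opalin's log2 fold change was -0.59 (SE 0.22, interval -1.06 to -0.11, adjusted p = 0.142 in edgeR's test). Counts of 145 to 276 per library for Opalin and 127 to 265 for Aspa, against 4001 to 8971 for Mbp, make counting error a larger part of their spread.

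**Figure D3:**
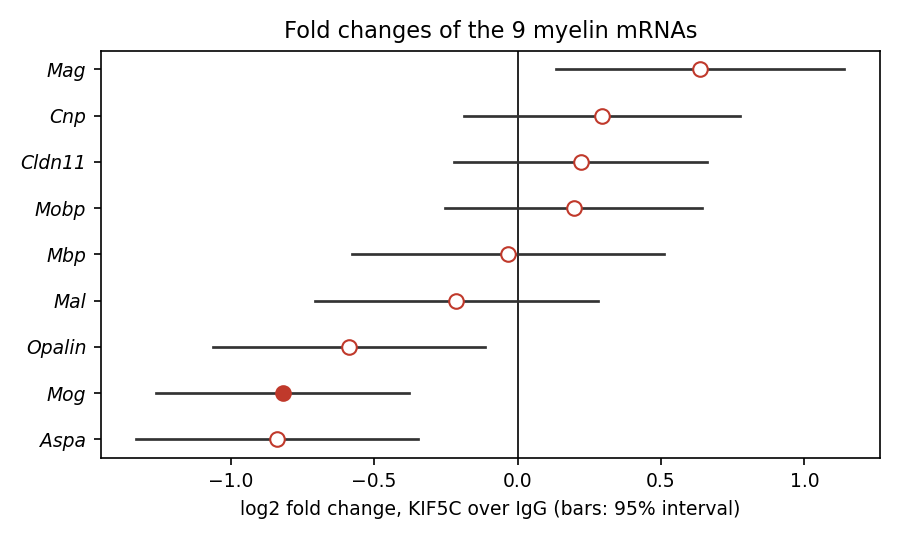
Log2 fold change of each myelin mRNA, KIF5C over IgG, with its 95% interval from the edgeR fit (filled point, adjusted p below 0.05; open points, not passed). Mog at -0.82 is the filled point; the intervals of Mag, Opalin and Aspa also leave out 0, and those of the other 5 include it.

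The authors' deposited table gave the same signs for all 9 genes once its direction, IgG over KIF5C, was turned. In the authors' deposited table Mog was at -0.73 (adjusted p = 0.00927), Aspa at -0.69 (adjusted p = 0.0716) and Mag at 0.57 (adjusted p = 0.106), each as KIF5C over IgG on the log2 scale. The authors' deposited table put Mbp at -0.01 (adjusted p = 0.977).

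Levels of different genes can be set side by side only per length. Counts were divided by the length of the longest annotated transcript and scaled to a common total per library (TPM). This put Mbp first in all 4 libraries, at 136 and 73.1 TPM with IgG and 223 and 96.5 TPM with KIF5C. TPM values carry no TMM scaling, so they order genes within a library and do not compare a gene between libraries. Mal and Cnp held the next ranks in all 4, and Opalin and Aspa the last, at 2.42 to 9.65 TPM. Mog stood at rank 4 of the 9 in both IgG libraries and at rank 7 in both KIF5C libraries. Mag stood at ranks 6 and 7 with IgG and at ranks 4 and 5 with KIF5C. Some neighbours in this order were close to level, such as Mag and Cldn11 at 106 and 103 TPM in KIF5C 1. With the longest protein-coding transcript in place of the longest annotated one, Aspa and Opalin traded places in both IgG libraries and Mal and Cnp in KIF5C 2, and the ranks of Mog and Mag were as above.

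The 9 transcripts also differ in base composition. Ordered by the GC content of the longest protein-coding transcript, they ran from Aspa (41.4%), Opalin (47.6%), Mal (48.9%) and Mog (50.0%) through Cldn11 (50.9%), Mbp (51.0%) and Mobp (53.3%) to Cnp (55.8%) and Mag (57.6%). The 4 genes lowest in GC had negative fold changes, and 4 of the other 5 had positive ones. Across the 9 genes, which share the same 4 libraries, GC content and log2 fold change had a Pearson r of 0.85 and a Spearman rho of 0.90; across 12984 genes tested with a protein-coding transcript they had 0.33 and 0.33. The median log2 fold change of all genes was -0.35 in the lowest decile of GC (33.1% to 42.0%) and 0.18 in the highest (58.4% to 72.8%). Genes are not independent replicates, so these correlations are descriptions.

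**Figure D4:**
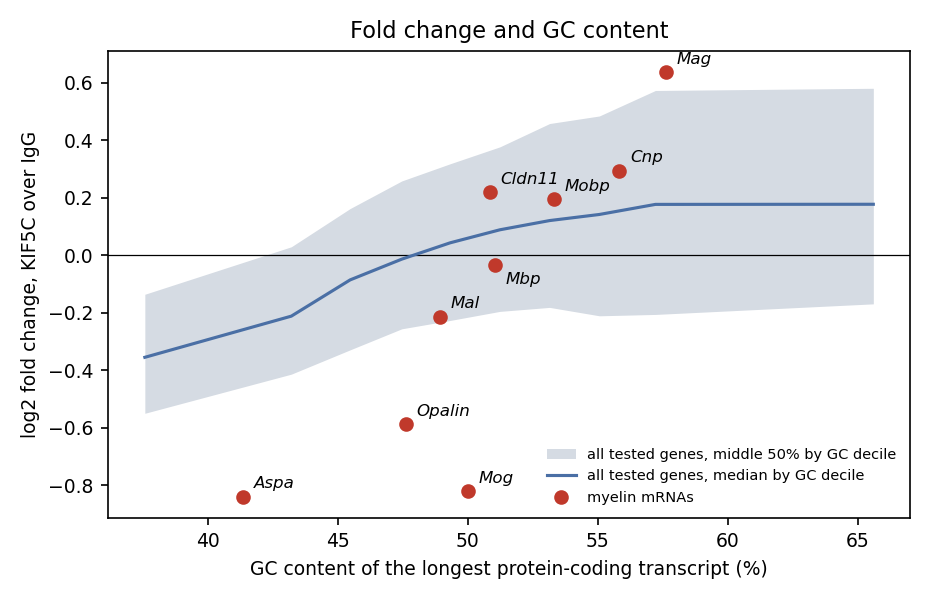
Log2 fold change, KIF5C over IgG, against GC content of the longest protein-coding transcript for the 9 myelin mRNAs (red points), with the median (line) and the middle 50% (band) of all genes tested by decile of GC content, drawn at the middle of each decile's range. The lowest red point is Aspa at 41.4% GC and the highest is Mag at 57.6%, and Mog, Aspa, Opalin and Mag lie outside the band.

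When a trend on GC content and transcript length was taken out of each library, the span between the lowest and highest of the 9 narrowed from 1.48 to 1.20 on the log2 scale. The relation to GC content of the protein-coding transcript remained, at a Pearson r of 0.74 and a Spearman rho of 0.75 across the 9. Mog was then at -0.71 (SE 0.16) and still passed (adjusted p = 0.0329 in edgeR's test). Aspa stood at -0.50 (adjusted p = 0.158), Opalin at -0.46 (adjusted p = 0.191) and Mag at 0.49 (adjusted p = 0.157) in the same fit. Mbp stood at -0.22 (adjusted p = 0.592 in edgeR's test). The trend was fitted on the longest annotated transcript of each gene. For Aspa and Opalin that is a model that keeps an intron, with 38.5% and 45.8% GC, and not the protein-coding one. For Cnp it is not the protein-coding one either. With length alone, the 9 genes had a Pearson r of 0.45 between log2 length and log2 fold change, against 0.18 over all genes.

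A wider list of 42 genes of mature oligodendrocytes, of which 41 were tested, also spread to both sides. Neither in it nor in the lists that follow did a gene pass with library totals in place of TMM. Counts for these lists are to be read against all genes tested. Of those, 3.33% were called higher and 0.745% lower in edgeR's test. An unadjusted p under 0.05 was reached by 21.5%, in either direction, and 47.6% had a positive fold change. Of the 41, 2 rose, 0 fell and 39 did not pass, with a median of -0.16. That median rested on single libraries: it was 0.00 when KIF5C replicate 2 was left out, -0.07 when IgG replicate 2 was and -0.08 when IgG replicate 1 was, and 0.01 with library totals. DESeq2 called 3 higher and 2 lower, and at an unadjusted p under 0.05 there were 4 higher and 6 lower. Cd9, encoding a tetraspanin made by many cell types, measured 3.14 and 3.82 CPM with IgG and 9.03 and 8.24 CPM with KIF5C, and rose by 1.33 on the log2 scale (SE 0.29, adjusted p = 0.0187 in edgeR's test). Nfasc, encoding neurofascin, which neurons make as well as glia, measured 76.0 and 56.1 CPM with IgG and 170 and 109 CPM with KIF5C, and rose by 1.08 (SE 0.26, adjusted p = 0.0283). The next smallest p-values were on the lower side, Qdpr, a pteridine reductase gene, at -0.78 (adjusted p = 0.057) and Ermn, the gene of the cytoskeletal protein ermin, at -0.86 (adjusted p = 0.0575). Cd9 lost its call when KIF5C replicate 1 was left out (adjusted p = 0.148). Nfasc lost it when IgG replicate 2 (0.14) or KIF5C replicate 1 (0.376) was left out and when the GC and length trend was removed (0.0529).

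None of 12 transcription factor genes of the oligodendrocyte lineage passed with edgeR or DESeq2, and 3 were higher at an unadjusted p under 0.05. Their median was 0.37, and 10 of the 12 were positive, against 47.6% of all genes tested. Myrf, the gene of the factor that switches on the myelin program, measured 18.2 and 16.4 CPM with IgG and 30.3 and 28.1 CPM with KIF5C (log2 fold change 0.75, adjusted p = 0.0622). Olig2 stood at 0.57 (adjusted p = 0.199), Sox10 at 0.53 (adjusted p = 0.204) and Nkx6-2 at 0.60 (adjusted p = 0.306) in edgeR's test. The list's median was 0.16 with the GC and length trend removed and 0.22 when KIF5C replicate 2 was left out.

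Among 15 markers of oligodendrocyte precursors none passed with edgeR or DESeq2, and 1 was higher at an unadjusted p under 0.05 (median 0.06). The median had no stable sign, at 0.22 with IgG replicate 1 left out, 0.18 with KIF5C replicate 1 left out, -0.19 with IgG replicate 2 left out, -0.07 with KIF5C replicate 2 left out and -0.10 with the GC and length trend removed. The gene past the unadjusted p was Cacng4, an AMPA receptor auxiliary subunit gene, at 1.04 (adjusted p = 0.078). Lhfpl3 stood at -0.52 (adjusted p = 0.264), Neu4, a sialidase gene, at -0.36 (adjusted p = 0.421) and Vcan, the gene of the matrix proteoglycan versican, at -0.28 (adjusted p = 0.493) in edgeR's test. Among 26 genes that make myelin lipids 1 rose and 25 did not pass (median 0.09, and 0.20 or 0.16 with IgG replicate 1 or 2 left out). Fasn, the fatty acid synthase gene, measured 147 and 99.1 CPM with IgG and 292 and 204 CPM with KIF5C, and rose by 1.01 (SE 0.26, adjusted p = 0.0408). Its call was lost when either IgG replicate 2 (adjusted p = 0.179) or KIF5C replicate 1 (0.389) was dropped, and after removal of the GC and length trend (0.0956). Fa2h, which makes hydroxylated myelin lipids, was at 0.63 (adjusted p = 0.143) and Ugt8a, which makes galactosylceramide, at -0.66 (adjusted p = 0.137) in edgeR's test.

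Factors that carry Mbp mRNA or control its translation form a list of 20 genes, of which 2 rose, 0 fell and 18 did not pass (median 0.25, and 0.42 or 0.38 with IgG replicate 2 or KIF5C replicate 2 left out). DESeq2 called 3 higher. At an unadjusted p under 0.05 in edgeR's test, 8 were higher and 0 lower, against 21.5% of all genes in either direction. Fyn, the gene of the kinase that releases the translation of Mbp mRNA at the axon, measured 25.8 and 32.9 CPM with IgG and 69.3 and 56.4 CPM with KIF5C, and rose by 1.10 (SE 0.22, adjusted p = 0.0149 in edgeR's test). Dropping KIF5C replicate 1 ended this call (adjusted p = 0.159). Hnrnpab, encoding a protein that binds the hnRNP A2 element in rodent oligodendrocytes, also rose, from 22.5 and 37.1 CPM to 56.6 and 56.9 CPM (log2 fold change 0.94, SE 0.24, adjusted p = 0.0402). It stood at 0.61 (adjusted p = 0.0931) when IgG replicate 1 was left out, and its adjusted p was 0.167 or 0.0948 when KIF5C replicate 1 or 2 was. Kif5a, another kinesin-1 heavy chain gene, was at 0.74 (adjusted p = 0.152) and Hnrnpf, of an RNA-binding protein, at 0.62 (adjusted p = 0.163) in edgeR's test. These mRNAs are made in neurons and other cells too, so their levels say nothing of oligodendrocytes alone.

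**Figure D5:**
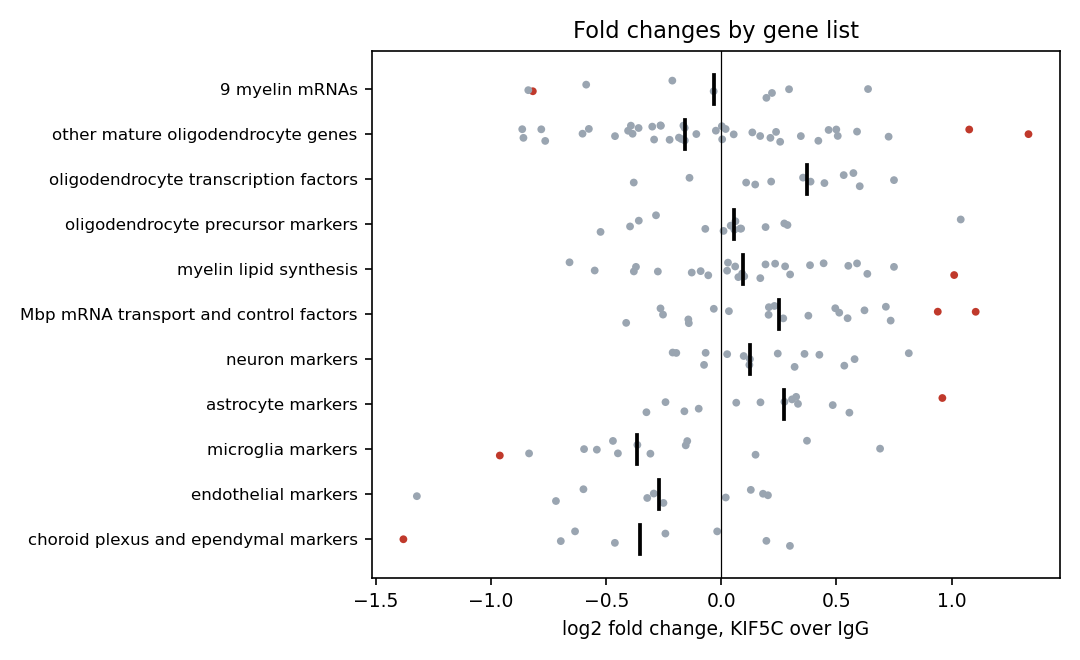
Log2 fold change, KIF5C over IgG, of every tested gene in each list (points; red, adjusted p below 0.05 in edgeR's test), with the list's median as a black bar; vertical position within a list is arbitrary. The 9 myelin mRNAs centre on -0.03, the oligodendrocyte transcription factors on 0.37 and the microglia markers on -0.36.

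Markers of some other cell types had negative medians beside Mog, Aspa and Opalin. Of 13 microglia markers 1 fell and 12 did not pass, and the list summed to 428 and 346 CPM with IgG and 344 and 330 CPM with KIF5C, so that IgG 2 and KIF5C 1 were level. Its median of -0.36 was -0.21 with IgG replicate 1 left out and -0.55 with IgG replicate 2 left out. On the lower side, 5 of the 13 reached an unadjusted p under 0.05 in edgeR's test, and 0 on the higher side. The 1 that fell was Tyrobp, an immune adaptor gene, at -0.96 (adjusted p = 0.0322), whose adjusted p was 0.0658, 0.281 and 0.152 when IgG replicate 2, KIF5C replicate 1 and KIF5C replicate 2 were left out in turn, and 0.0611 with the GC and length trend removed. None of 10 endothelial markers passed with edgeR or DESeq2, with 3 lower at an unadjusted p under 0.05, and they summed to 123 and 120 CPM against 98.1 and 101 CPM. Of 8 choroid plexus and ependymal markers 1 fell, and they summed to 454 and 253 CPM with IgG and 181 and 146 CPM with KIF5C. Without Ttr the other 7 summed to 53.9 and 39.9 CPM with IgG and 44.6 and 46.0 CPM with KIF5C, which overlap, and the list's median of -0.35 was -0.09 with IgG replicate 1 left out and -0.20 with KIF5C replicate 1 left out. The gene that fell was Ttr, of the choroid plexus protein transthyretin, at -1.38 (adjusted p = 0.0166), which stood at -0.85 when IgG replicate 1 was left out and did not pass when KIF5C replicate 2 was left out (0.0813) or the trend removed (0.0681). No marker of these lists was at 0 in all libraries. Their part in the lower levels of Mog, Aspa and Opalin was not tested.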

How the data were processed

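RNA of antibody precipitates from mouse hippocampus was measured in 4 libraries, 2 per antibody, grouped by the sample titles. The authors deposited whole-number read counts per gene, not normalized. Salmon, DESeq and GRCm38 are named in the submitters' processing notes, without versions or settings, and no source used here gives the annotation or strand setting. Reads of genes that overlap (Dnajc7 with Cnp, Gm38642 with Mobp, Gm22388 with Mog, Rpl21-ps8 with Mbp) could have been split between them. The authors' deposited comparison holds log2 fold changes, p-values and a linear fold, per the file headers.

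From the counts, edgeR 4.0.16 (R 4.3.3) was run with TMM, filterByExpr (minimum count 10, total 15) and a model of antibody alone, with Benjamini-Hochberg adjustment over 14357 genes at 0.05. Standard errors are the fold change over the root of F, and 95% intervals use the fit's degrees of freedom. The test was checked on simulated data. CPM are TMM-scaled. DESeq2 1.42.0 and the alternatives in the closing section were run on the same counts. Of the rows, 98.2% matched a GENCODE M21 symbol directly or through an older symbol, and 27 rows whose names a spreadsheet had turned into dates are not named. GC content and length for the trend removal come from the longest annotated transcript, available for 99.4% of tested genes. The per-length values with protein-coding transcripts were chosen after the data were seen.

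The 9 genes and the lists were chosen with earlier results of these data known. Named genes are the 9, the up to 4 smallest p-values of each list (those of other cell types only where a result turns on them), and the 5 nearest profiles; some genes that this rule takes are not reported here.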

Additional observations from a re-analysis of the deposited data

How the results depend on the processing

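The fold change of every member but Mbp kept its sign in the 11 refits, with Mog negative and Mag positive among them. The refits reuse the same counts and are not independent. Mbp turned to 0.14 with library totals, where the median of all genes was 0.11, and ran from -0.15 to 0.11 when a library was left out. The number of the 9 called lower, 1 in the report, was 0 with library totals, 2 with no low-count filter, 2 at a mean count of at least 50, 2 at an adjusted p of 0.1, and 0 to 2 when a library was left out; the number called higher was 0 to 1 when a library was left out. The median of the 9 was 0.14 with library totals, -0.21 with the GC and length trend removed, and -0.060 to 0.11 when a library was left out. Called genes of the other lists, 6 higher and 2 lower, became 10 and 4 with DESeq2, 0 and 0 with library totals, 11 and 5 with no low-count filter, 4 lower at a mean count of at least 50, and 0 to 12 higher and 0 to 5 lower when a library was left out. Over all genes, 478 higher and 107 lower became 1 and 4 with library totals, 902 and 261 with no low-count filter, and 116 to 978 higher and 27 to 586 lower when a library was left out, fewest without KIF5C replicate 1 and most without IgG replicate 1. The cause was not tested. Left out 1 at a time, a group's lone library is assumed to vary like the other group's.

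The replicate numbers are not stated to pair libraries. Deviations of same-numbered libraries from their group means correlated at 0.14 over genes. The share of mt-Rnr2 was alike by number, at 7.36% (IgG) and 11.3% (KIF5C) in replicate 1 and 32.2% and 31.9% in replicate 2. With the replicate number as a block, 1 of the 9 was higher (Mag, adjusted p = 0.0175) and 2 lower (Mog, 0.00271, and Aspa, 0.0139), other lists had 14 higher and 9 lower, and all genes 1162 and 517.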

Other observations

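None of 15 neuron markers passed in edgeR's test, and 3 were higher at an unadjusted p under 0.05. DESeq2 called 1 higher. Of the 15, 11 were positive, against 47.6% of all genes tested (median 0.12, and 0.29 with KIF5C replicate 2 left out). Snap25, a vesicle fusion gene, measured 420 and 602 CPM with IgG and 874 and 922 CPM with KIF5C (log2 fold change 0.81, adjusted p = 0.113). Of 13 astrocyte markers 1 rose and 12 did not pass. Their median of 0.27 was -0.0020 with IgG replicate 2 left out, 0.055 with KIF5C replicate 1 left out and 0.11 with the GC and length trend removed, and their summed levels overlapped between groups, at 3221 and 2581 CPM with IgG and 3947 and 2917 CPM with KIF5C. Atp1b2, a sodium pump subunit gene, measured 59.8 and 49.2 CPM with IgG and 108 and 104 CPM with KIF5C, a log2 fold change of 0.96 (adjusted p = 0.022). Its adjusted p was 0.0864, 0.159 and 0.0671 when IgG replicate 2, KIF5C replicate 1 and KIF5C replicate 2 were left out in turn.

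Over the 4 libraries, the genes whose centred log2 CPM profile lay nearest to the mean profile of the 9 myelin mRNAs were Timmdc1, Rmdn3, Jarid2, Ino80e and Smim14, at distances of 0.01 to 0.03 on the log2 scale among 9304 candidates. Their log2 fold changes ran from -0.15 to -0.11. The mean profile averages members that ran from -0.84 (Aspa) to 0.64 (Mag), so nearness to it is not likeness to each member. With 4 libraries, this nearness is a description.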
